A study of Bos indicus with 5 samples.

Results

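The epidermal growth factor (EGF) family and its receptors were examined in the ampulla, the wide part of the oviduct near the ovary. The members were 10 genes taken by symbol, namely the 6 ligands EGF, TGFA, AREG, EREG, BTC and HBEGF and the 4 receptors EGFR, ERBB2, ERBB3 and ERBB4. Of these, 8 were found among the 24616 genes of the ampulla table, and EGF and AREG, which had no entry under these symbols, were not analysed here. Tissue came from 5 multiparous, non-lactating Nelore cows (Bos indicus), of which 2 were managed to ovulate a large follicle and form a large corpus luteum (LF/LCL) and 3 a small follicle and corpus luteum (SF/SCL), and each library was from a different cow. The study set aside a further LF/LCL library for inadequate quality. All cows were presynchronized with prostaglandin F2 alpha and a GnRH agonist, and received an intravaginal progesterone device of 1 g and 2 mg of estradiol benzoate, prostaglandin F2 alpha at device removal and again some hours later, and a GnRH agonist to induce ovulation. The LF/LCL cows also received prostaglandin when the device was inserted, and their device was removed 42 h before GnRH, against 30 h in SF/SCL. The whole wall of the ampulla was taken on day 4 from the side that bore the corpus luteum. The sequenced cows were those ranked highest (LF/LCL) or lowest (SF/SCL) for follicle diameter, corpus luteum area and plasma steroids and were not a random draw.

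Ligands of this family are made as membrane-anchored precursors that ADAM proteases cut free. Released ligands bind EGFR or ERBB4 on the same or nearby cells, the receptors pair, and the pairs signal through RAS and ERK, through PI3 kinase and AKT, and through phospholipase C gamma and STAT proteins. ERBB2 binds no known ligand by itself and serves as the favoured partner of the other receptors, whereas ERBB3 binds neuregulins but has a weak kinase and signals by recruiting PI3 kinase. In the oviduct, EGF family ligands are known as growth factors for the epithelium and the early embryo.

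The libraries held from 13418278 to 19592174 reads assigned to genes. Values are normalized reads, that is, reads divided by a size factor per library. Transcript lengths were not used here, so levels are compared between libraries and not between genes. Marker genes were read for the cell types present. OVGP1, the secretory glycoprotein of the oviduct, and FOXJ1, the regulator of motile cilia, were detected in every library. Their detection does not test the ampulla label, because the study also measured OVGP1 in the isthmus, another region of the oviduct. Smooth muscle, stromal, endothelial, immune and mesothelial markers were detected too, so these are mixed tissues, and in such samples fewer cells of a type and less RNA per cell cannot be told apart.

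All 4 receptors and 3 of the 4 ligands found had a mean over 5 normalized reads and were tested. The values of each member in each library are shown in the plot of normalized reads. With limma, 0 of the 7 had an adjusted p under 0.05, where 0 of all 15815 genes tested did (0.0%). At an unadjusted p under 0.05 limma called 0 of the 7 members and 11.5% of all genes, edgeR called 0 of the 7 and 11.6% of all genes, and DESeq2 called 0 of the 7 and 12.7% of all genes. The smallest unadjusted p among the members was 0.136 (HBEGF, limma). The LF/LCL and SF/SCL values did not overlap in 4 of the 7, against 30.1% of all genes tested. In 2 of them LF/LCL was higher (15.0% of all genes) and in the other 2 SF/SCL was (15.1%). The 7 log2 differences had a median of -0.17, beside 0.0054 over all genes tested, and their median size was 0.22, beside 0.21.

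**Figure D1:**
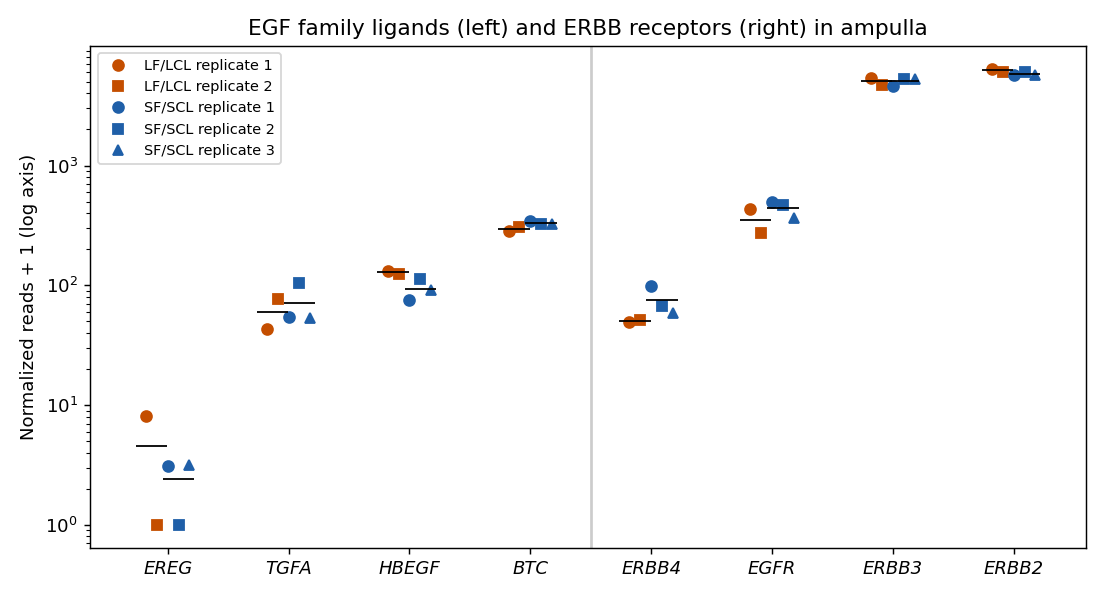
Normalized reads plus 1 (vertical log axis) of the 4 EGF ligands and 4 ERBB receptors found in the ampulla table, 1 symbol per library, orange for LF/LCL and blue for SF/SCL, with short lines at the group means. ERBB2, ERBB3 and BTC vary least between libraries, EREG sits at the detection limit, and the groups are apart for HBEGF, BTC, ERBB2 and ERBB4 without passing a test.

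The receptors are described first. ERBB2 had 6428 and 6094 normalized reads in LF/LCL (replicate 1, then replicate 2) against 5681, 6084 and 5732 in SF/SCL (replicates 1 to 3, the order used throughout). Both LF/LCL values lay above all SF/SCL values, but LF/LCL replicate 2 and SF/SCL replicate 2 were nearly the same. The means were 6261 ± 236.1 (SD, n = 2) and 5832 ± 219.7 (SD, n = 3), a log2 difference of 0.10 ± 0.097 (SE, limma adjusted p = 0.741). The 95% interval of the ratio of LF/LCL to SF/SCL ran from 0.91 to 1.26. ERBB2 was steady over the cows, with a highest value 1.13 times the lowest. Only 4.8% of the genes tested had a smaller SD of log2 values over the 5 libraries, and that SD, 0.073, was itself above the 0.019 that counting error alone would give.

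ERBB3, the kinase-weak neuregulin receptor, had 5417 and 4667 normalized reads in the LF/LCL cows against 4621, 5230 and 5284 in the SF/SCL cows. The groups overlapped fully, as the highest and the next to lowest of the 5 values both came from LF/LCL. The means were 5042 ± 530.1 (SD, n = 2) and 5045 ± 367.9 (SD, n = 3), and the log2 difference was -0.0022 ± 0.12 (SE, limma adjusted p = 0.998). The 95% interval of the ratio ran from 0.82 to 1.22. As with ERBB2 the spread was narrow, and 13.7% of the genes tested had a smaller SD over the libraries. For each 100 normalized reads of ERBB2 there were 84.3 and 76.6 of ERBB3 in the LF/LCL cows against 81.35, 85.95 and 92.2 in the SF/SCL cows. The balance of this receptor pair moved by at most 1.2 times between cows, and the groups overlapped.

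EGFR, the receptor for EGF, TGFA, AREG, BTC, HBEGF and EREG, had 432.8 and 270.1 normalized reads in the LF/LCL cows against 494.9, 463.2 and 363.8 in the SF/SCL cows. LF/LCL replicate 2 was the lowest of the 5 libraries, and LF/LCL replicate 1 lay inside the SF/SCL range. The means were 351.4 ± 115.0 (SD, n = 2) and 440.6 ± 68.4 (SD, n = 3), a log2 difference of -0.35 ± 0.25 (SE, limma adjusted p = 0.641). The 95% interval of the ratio, 0.52 to 1.19, includes both equal levels and a level in LF/LCL of 0.52 of that in SF/SCL. The difference rested on 1 library. It was -0.014 without LF/LCL replicate 2 and -0.692 without LF/LCL replicate 1, where the limma unadjusted p was 0.0331 and the adjusted p 0.592. EGFR varied more than counting error, with an SD of log2 values of 0.35 against 0.074 from counting alone.

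ERBB4, which binds neuregulins and some EGF ligands, had 48.1 and 50.3 normalized reads in the LF/LCL cows against 97.7, 66.1 and 57.95 in the SF/SCL cows. All SF/SCL values lay above both LF/LCL values, and SF/SCL replicate 1 was the farthest from the rest. The means were 49.2 ± 1.59 (SD, n = 2) and 73.9 ± 21.0 (SD, n = 3), a log2 difference of -0.54 ± 0.35 (SE, limma adjusted p = 0.6). The 95% interval of the ratio ran from 0.38 to 1.23, and without SF/SCL replicate 1 the log2 difference shrank to -0.325. The values rested on 41 and 52 reads in LF/LCL and on 94, 85 and 54 in SF/SCL. Per 100 normalized reads of ERBB2, ERBB4 stood at 0.748 and 0.826 in the LF/LCL cows against 1.72, 1.09 and 1.01 in the SF/SCL cows. The groups had to be apart on this scale, because ERBB4 was lower and ERBB2 higher in both LF/LCL cows. The ratio therefore adds no support, and it was not tested.

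**Figure D2:**
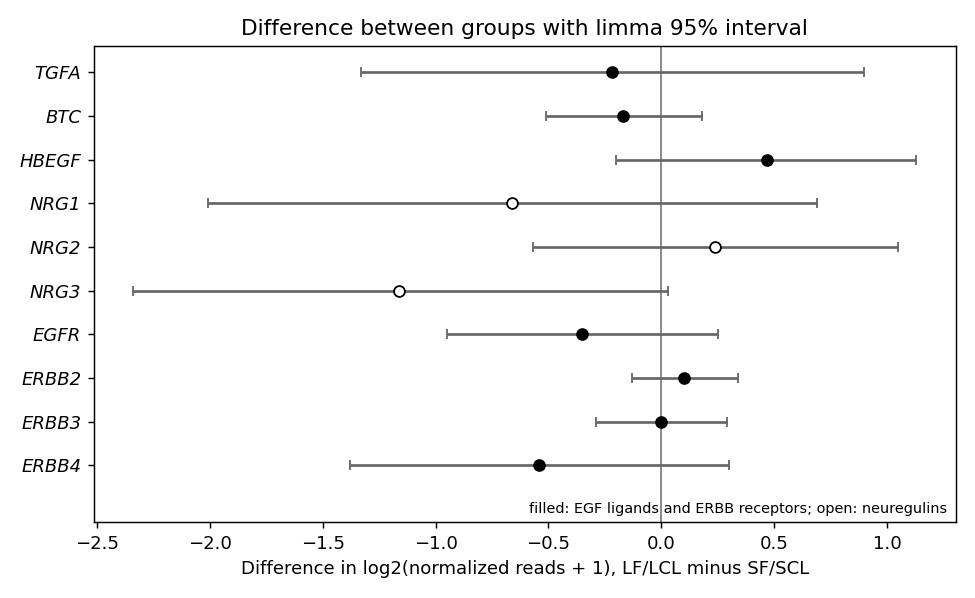
Difference in log2(normalized reads + 1) between LF/LCL and SF/SCL (horizontal axis, LF/LCL minus SF/SCL) with its 95% limma interval, for the 7 tested EGF ligands and ERBB receptors (filled) and the 3 tested neuregulins (open). All 10 intervals include 0, and those of ERBB2 and ERBB3 are the narrowest.

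Among the ligands, HBEGF, a heparin-binding ligand of EGFR and ERBB4, had 130.2 and 123.9 normalized reads in the LF/LCL cows against 74.9, 112.7 and 91.2 in the SF/SCL cows. Both LF/LCL values were above all SF/SCL values, and the nearest SF/SCL value was that of replicate 2. The means were 127.0 ± 4.44 (SD, n = 2) and 92.9 ± 19.0 (SD, n = 3), a log2 difference of 0.47 ± 0.27 (SE, limma adjusted p = 0.57). This was the member with the smallest p. The 95% interval of the ratio ran from 0.87 to 2.19, and the log2 difference stayed between 0.322 and 0.614 over the 13 alternative fits.

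BTC, betacellulin, which also binds EGFR and ERBB4, had 281.5 and 306.8 normalized reads in the LF/LCL cows against 344.1, 326.4 and 320.9 in the SF/SCL cows. Here the order was the opposite of HBEGF, with all SF/SCL values above both LF/LCL values. The means were 294.1 ± 17.9 (SD, n = 2) and 330.5 ± 12.2 (SD, n = 3), a log2 difference of -0.17 ± 0.14 (SE, limma adjusted p = 0.704). BTC was the steadiest of the ligands tested. Its SD of log2 values within groups, 0.066, was below the 0.082 that counting error alone would give, and the 95% interval of the ratio ran from 0.7 to 1.13. Because HBEGF and BTC had opposite orders, the ratio between them did not overlap between the groups. For each 100 normalized reads of BTC there were 46.25 and 40.4 of HBEGF in the LF/LCL cows against 21.75, 34.5 and 28.4 in the SF/SCL cows, with means of 43.3 ± 4.15 (SD, n = 2) and 28.2 ± 6.39 (SD, n = 3). This ratio was formed after its members' values were seen and was not tested.

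TGFA, transforming growth factor alpha, a ligand of EGFR, had 42.2 and 76.5 normalized reads in the LF/LCL cows against 53.0, 104.1 and 52.6 in the SF/SCL cows. The groups overlapped, and replicate 2 of each group stood above the other 3 libraries. The means were 59.3 ± 24.2 (SD, n = 2) and 69.9 ± 29.6 (SD, n = 3), a log2 difference of -0.22 ± 0.46 (SE, limma adjusted p = 0.901). TGFA was the most variable member tested, with a highest value 2.47 times the lowest. The direction was not fixed by the data, since the log2 difference was 0.204 without LF/LCL replicate 1 and 0.105 without SF/SCL replicate 2.

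EREG, epiregulin, was close to the detection limit. It had 6 and 0 reads in the LF/LCL cows against 2, 0 and 2 in the SF/SCL cows, 10 reads in all. The exact 95% Poisson interval of the 6 reads ran from 2.2 to 13.06, and that of a count of 0 ran from 0 to 3.69. These limits cover counting error only. No difference in EREG was detectable at this depth, and it was not tested.

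The family has 5 further ligands, EPGN and the neuregulins NRG1 to NRG4, of which NRG4 was not matched and was not analysed here. EREG, AREG, BTC and EPGN, which encodes epigen, are neighbours on chromosome 6 in the order EPGN, EREG, AREG and BTC, with 0 other protein-coding genes between them (RefSeq annotation of the NIAB-ARS Tharparkar assembly of Bos indicus). Over the 5 libraries BTC had 1607 reads, EREG 10 and EPGN 16, and AREG was not analysed. Transcript lengths were not used, so these counts are not compared as levels. HBEGF lies on chromosome 7 with 3 protein-coding genes between it and NRG2. NRG2 had 255.7 and 129.7 normalized reads in the LF/LCL cows against 150.8, 134.4 and 181.4 in the SF/SCL cows, and its groups overlapped. NRG1, a ligand of ERBB3 and ERBB4, had 51.6 and 16.45 in the LF/LCL cows against 36.4, 52.85 and 53.7 in the SF/SCL cows. The low NRG1 value was that of LF/LCL replicate 2 and rested on 17 reads. That library was also lowest for EGFR and for the summed endothelial markers (4679 normalized reads), and a link between these was not tested. NRG3, a ligand of ERBB4, had 9.38 and 20.3 in the LF/LCL cows against 33.3, 35.75 and 27.9 in the SF/SCL cows. These values rested on 8 and 21 reads in LF/LCL and on 32, 46 and 26 in SF/SCL. Like ERBB4, NRG3 was lower in both LF/LCL libraries than in any SF/SCL library, an order that 15.1% of all genes tested had. Of the other ERBB4 ligands, BTC had the same order, HBEGF the reverse, and NRG1 and NRG2 overlapped. The NRG3 log2 difference of -1.16 ± 0.49 (SE) had a limma unadjusted p of 0.0545 and an adjusted p of 0.45.

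The rest of the pathway was read from 7 lists of genes chosen by known role, which with the 5 further ligands named 103 genes, of which 100 were matched and 97 tested. Of the 97, 0 had a limma adjusted p under 0.05. An unadjusted p under 0.05 was found for 8 (8.25%, against 11.5% of all genes tested), of which LF/LCL was higher in 6 (5.64% of all genes) and SF/SCL in 2 (5.86%). DESeq2 gave an adjusted p under 0.05 to 4 of the 97 (EPS8, PAK1, SPRY4 and MYC) and to 2.89% of all genes tested, with LF/LCL higher for EPS8 and PAK1 (1.38% of all genes) and SF/SCL higher for SPRY4 and MYC (1.5%). PAK1, SPRY4 and PLCG1 are also among the genes that the study reported as differing in these libraries. EPS8 and MYC were measured in the same libraries too, so for none of these genes is the direction independent evidence. The median log2 difference over the 97 was 0.026, beside 0.0054 over all genes.

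Of the 7 shedding genes measured, none had an unadjusted p under 0.05 with limma or edgeR (11.5% and 11.6% of all genes). ADAM17, the protease that releases TGFA, HBEGF and AREG, had means of 562.2 ± 55.8 (SD, n = 2) for LF/LCL and 539.3 ± 81.4 (SD, n = 3) for SF/SCL, a log2 difference of 0.067 ± 0.17 (SE). ADAM10, the main sheddase of BTC and EGF, had 1280 ± 29.2 and 1156 ± 89.9, a log2 difference of 0.15 ± 0.11. ADAM15, a relative of both, had 1464 and 1463 in the LF/LCL cows against 1795, 1345 and 1695 in the SF/SCL cows. TIMP3, a matrix-bound inhibitor of ADAM17, had 6716 and 4740 normalized reads in the LF/LCL cows against 4708, 3192 and 4560 in the SF/SCL cows. Of the 7 shedding genes only TIMP3 had groups that did not overlap, beside 30.1% of all genes tested, and its limma adjusted p was 0.502.

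Of the 13 adaptors tested, 1 (7.69%, beside 11.5% of all genes) had an unadjusted p under 0.05. This was EPS8, an actin regulator and substrate of EGFR, with 1835 and 1551 normalized reads in the LF/LCL cows against 950.3, 997.1 and 754.5 in the SF/SCL cows. The groups were well apart, and the log2 difference of 0.92 ± 0.16 (SE) had an adjusted p of 0.197 with limma, 0.222 with edgeR and 0.000607 with DESeq2. The unadjusted p of EPS8 stayed under 0.05 in all 13 alternative fits. GAB1, a docking adaptor, and NCK1, an adaptor to the actin skeleton, had log2 differences of 0.26 ± 0.16 and 0.20 ± 0.13 with limma adjusted p of 0.581 and 0.614.

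In the RAS to ERK list 1 of 13 genes (7.69%, beside 11.5% of all genes) had an unadjusted p under 0.05, MAPK3 (ERK1), with 1586 and 1418 normalized reads in the LF/LCL cows against 1306, 1131 and 1220 in the SF/SCL cows. The groups did not overlap, and the limma adjusted p was 0.409. Its unadjusted p was under 0.05 in 9 of the 13 alternative fits and reached 0.1975 without LF/LCL replicate 1 (limma). Leaving out SF/SCL replicate 2 or 3 gave a limma unadjusted p of 0.0992 or 0.0657, and edgeR scaled by library size alone gave 0.0515. ARAF, a RAF kinase, was also without overlap and higher in LF/LCL (log2 difference 0.19 ± 0.10, limma adjusted p 0.532), and NF1, which turns RAS off, had both LF/LCL values below all SF/SCL values (-0.22 ± 0.11, limma adjusted p 0.523). In the whole list the groups did not overlap in 6 of 13 genes, beside 30.1% of all genes tested. LF/LCL was higher in 4 of them (15.0% of all genes) and SF/SCL in 2 (15.1%). In the PI3 kinase list 0 of 12 genes had a limma or edgeR unadjusted p under 0.05 (11.5% and 11.6% of all genes). PIK3CD, the catalytic subunit best known from leukocytes, had 105.5 and 136.5 normalized reads in the LF/LCL cows against 69.7, 62.95 and 93.4 in the SF/SCL cows, with a limma adjusted p of 0.46. The log2 differences of PIK3CB, a catalytic subunit, and PIK3R2, a regulatory subunit, were 0.27 ± 0.16 and -0.20 ± 0.14, with limma adjusted p of 0.575 and 0.645. PTPRC (CD45), a marker of leukocytes, had 689.6 and 816.0 in the LF/LCL cows against 638.4, 458.5 and 575.2 in the SF/SCL cows, and its part in the PIK3CD values was not tested.

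In the list of phospholipase C gamma, SRC and STAT genes 2 of 11 (18.2%) had an unadjusted p under 0.05, beside 11.5% of all genes. PAK1, a kinase that acts on the actin skeleton, had 1847 and 1794 normalized reads in the LF/LCL cows against 1219, 1351 and 1339 in the SF/SCL cows, and PLCG1, the phospholipase that binds activated EGFR, had 1640 and 1419 against 1197, 1154 and 1130. In both genes all LF/LCL values were above all SF/SCL values. The log2 differences were 0.48 ± 0.10 and 0.39 ± 0.11 (SE), with limma adjusted p of 0.245 and 0.308. Without LF/LCL replicate 1 the limma unadjusted p of PLCG1 was 0.0792, and that of PAK1 stayed under 0.05 in all 13 alternative fits. PTK2, focal adhesion kinase, was the reverse, at -0.24 ± 0.10 with a limma adjusted p of 0.45.

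**Figure D3:**
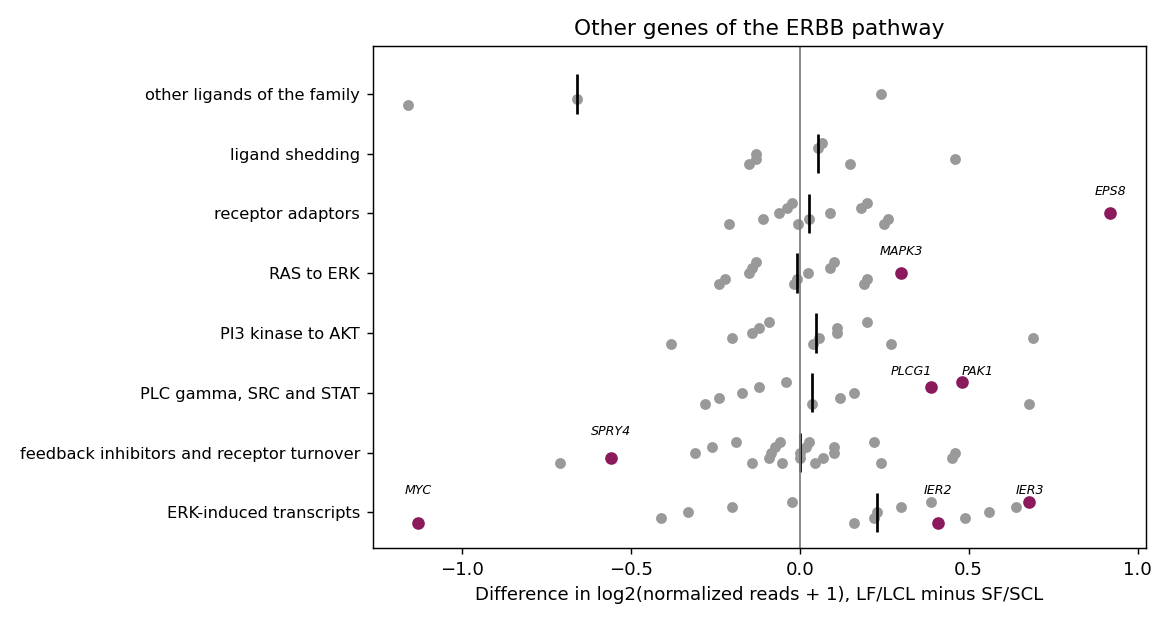
Difference in log2(normalized reads + 1) between LF/LCL and SF/SCL (horizontal axis) for the 97 tested genes of 8 lists of the ERBB pathway, 1 point per gene, with a black line at the list's median. The 8 named genes in purple had an unadjusted limma p under 0.05 and none had an adjusted p under 0.05; the medians of 6 lists lie between -0.0091 and 0.053.

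Feedback inhibitors limit signaling by removing receptors or by blocking RAS. Of the 23 tested, 1 (4.35%, beside 11.5% of all genes) had an unadjusted p under 0.05, SPRY4, a Sprouty protein that restrains RAS signaling, with 852.6 and 788.9 normalized reads in the LF/LCL cows against 1147, 1198 and 1291 in the SF/SCL cows. The groups did not come near each other, and the log2 difference of -0.56 ± 0.11 (SE) had an adjusted p of 0.222 with limma, 0.229 with edgeR and 0.00628 with DESeq2. Of its relatives, SPRY1 had a log2 difference of 0.45 ± 0.27 and SPRY2 of -0.19 ± 0.18, both with overlapping groups. LRIG1, which sends ERBB receptors to degradation, had 4849 ± 174.7 (SD, n = 2) and 4138 ± 520.6 (SD, n = 3), and ERRFI1, which binds and blocks the EGFR kinase, had 1219 ± 702.6 and 970.6 ± 195.7. DUSP6, a phosphatase of ERK, had 1100 ± 54.4 and 1140 ± 63.0, a log2 difference of -0.051 ± 0.10. CBLC, a ubiquitin ligase for EGFR, and PTPRJ, a phosphatase that acts on EGFR, had all SF/SCL values above the LF/LCL values, with limma adjusted p of 0.439 and 0.467. In the whole list the groups did not overlap in 6 of 23 genes, beside 30.1% of all genes tested. SF/SCL was higher in 4 of them (15.1% of all genes) and LF/LCL in 2, LRIG1 and USP8 (15.0%).

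Of the 15 genes tested in the list of ERK targets, 3 (20.0%) had an unadjusted p under 0.05, beside 11.5% of all genes tested. MYC, a regulator of growth, had 511.3 and 435.6 normalized reads in the LF/LCL cows against 733.0, 998.7 and 1510 in the SF/SCL cows. IER3 and IER2, immediate early response genes, had 225.2 and 181.0 against 140.4, 108.0 and 129.9, and 845.6 and 816.9 against 538.6, 684.7 and 665.4. The groups did not overlap in the 3 genes, but MYC was lower and IER3 and IER2 were higher in LF/LCL. In the whole list the groups did not overlap in 4 of 15 genes, beside 30.1% of all genes tested. Their log2 differences were -1.13 ± 0.30, 0.68 ± 0.23 and 0.41 ± 0.14 (SE), with limma adjusted p of 0.306, 0.363 and 0.377. The limma unadjusted p was 0.054 for MYC without LF/LCL replicate 2. For IER3 it was 0.1448 without LF/LCL replicate 1 and 0.0637 without SF/SCL replicate 2. For IER2 it was 0.1098 and 0.0799 without LF/LCL replicates 1 and 2, and 0.0665 without SF/SCL replicate 1. FOS and EGR1, the best known early targets of ERK, varied widely within groups, with 341.0 ± 330.4 (SD, n = 2) and 215.9 ± 192.3 (SD, n = 3) for FOS and 318.3 ± 253.1 and 256.3 ± 115.9 for EGR1.

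The members were also set beside cell type markers, since the summed levels of some of these differed between the groups. The summed smooth muscle markers (10 genes) ran from 63110 to 121900 normalized reads in LF/LCL and from 15840 to 42020 in SF/SCL, and all 10 had a positive log2 difference (median 1.5). The summed ciliated cell markers (14 genes) ran from 68010 to 86300 in LF/LCL and from 101100 to 104500 in SF/SCL, and all 14 had a negative log2 difference (median -0.47). The pan-epithelial markers (10 genes) ran from 46160 to 46590 and from 40880 to 44030, a narrow difference, with a positive log2 difference for 6 genes and a negative one for 4. The 10 proliferation markers had positive log2 differences (median 1.09), a direction shared by 8032 of all 15815 genes tested. Of the 10, 4 (MKI67, TOP2A, CENPF and RRM2) had a limma unadjusted p under 0.05. CCNB1, CDK1, PCNA and MCM2 overlapped between the groups. Such a p was found for 11.5% of all genes tested. It held for 9 of 10 smooth muscle, 11 of 14 ciliated, 4 of 10 pan-epithelial and 3 of 7 secretory genes. It also held for 5 of 11 immune and 1 of 6 endothelial genes. It held for 0 of 9 stromal, 0 of 4 mesothelial and 0 of 2 blood genes. The secretory, stromal, endothelial, immune, blood and mesothelial sums overlapped between the groups, though 9 of the 11 immune genes had a positive log2 difference and PTPRC was higher in both LF/LCL libraries. ALAS2, a marker of red cell precursors, was listed at 0 in every library. The part of these markers in the member values was not tested.

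**Figure D4:**
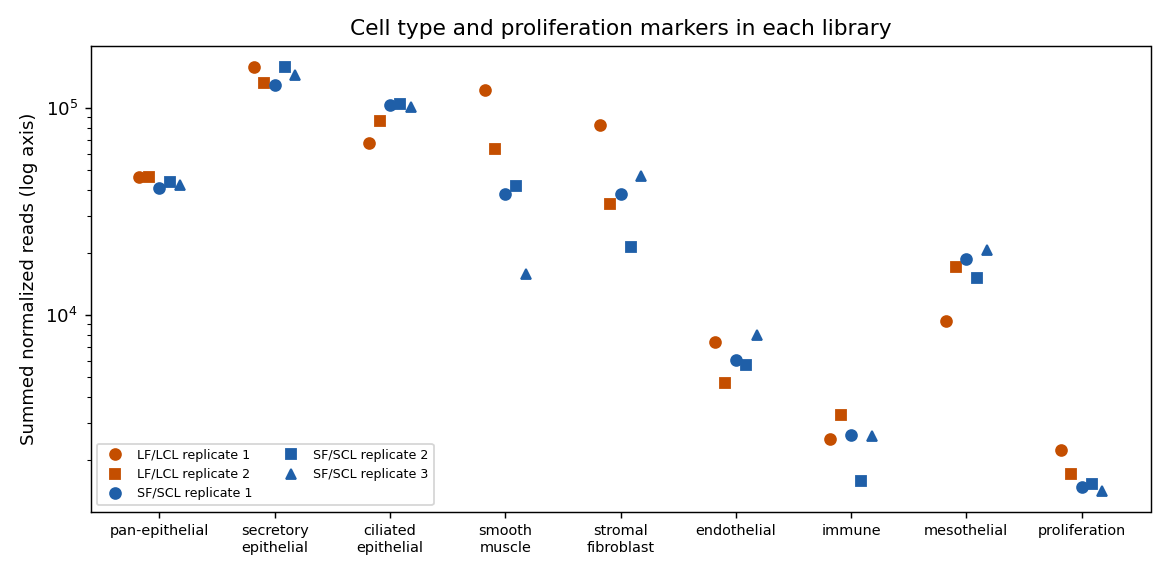
Summed normalized reads (vertical log axis) of 9 marker lists in each library, orange for LF/LCL and blue for SF/SCL; sums of different lists are not comparable with each other. The groups are apart for the pan-epithelial, ciliated, smooth muscle and proliferation markers, and LF/LCL replicate 1 has the highest smooth muscle sum, 121900.

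The members were also expressed against these sums. This scaling was chosen after the values were seen, and no test was made on it. Because the sums are themselves apart between the groups, dividing by them moves all genes one way, and the members are given beside the share of all genes tested. Per 1000 normalized reads of pan-epithelial markers, ERBB2 stood at 138.0 and 132.0 in LF/LCL and at 139.0, 138.2 and 135.8 in SF/SCL, so that the groups overlapped on this scale where they had not before. HBEGF stood at 2.79 and 2.68 against 1.83, 2.56 and 2.16, BTC at 6.04 and 6.65 against 8.42, 7.41 and 7.6, and ERBB4 at 1.03 and 1.09 against 2.39, 1.5 and 1.37. These 3 genes kept the order they had as normalized reads. For BTC and ERBB4 it could not change, because they were lower and the pan-epithelial sum was higher in both LF/LCL libraries. Their order on this scale therefore adds no support. On this scale LF/LCL was higher without overlap in 1 of the 7 members and 7.8% of all genes tested, and SF/SCL in 2 of the 7 and 27.3%. Per 1000 reads of ciliated markers, LF/LCL was higher without overlap in 4 of the 7 members (HBEGF, BTC, ERBB2 and ERBB3), where 51.6% of all genes were, and TGFA, EGFR and ERBB4 overlapped. Per 1000 reads of smooth muscle markers, SF/SCL was higher without overlap in 6 of the 7 members, where 80.5% of all genes were, and HBEGF overlapped. The counts on these scales, the pan-epithelial one included, therefore say nothing particular about the members.

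The plot of alternatives shows how far each difference depended on single cows. ERBB2 kept a positive difference (0.064 to 0.141), HBEGF a positive one, and BTC and ERBB4 negative ones over the 13 alternative fits. The groups did not overlap in these genes, so leaving out a library could change the size of the difference but not its sign. EGFR kept a negative sign but ran from -0.692 to -0.014. TGFA and ERBB3 took both signs.

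**Figure D5:**
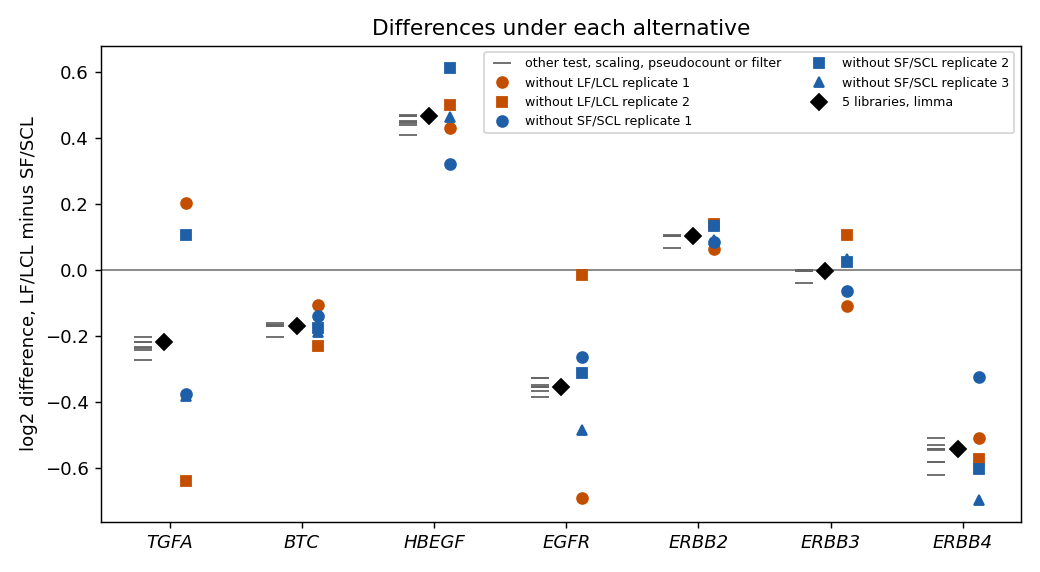
Log2 difference LF/LCL minus SF/SCL (vertical axis) of the 7 tested members with limma on 5 libraries (black diamonds), with another test, scaling, pseudocount or filter (grey dashes) and with 1 library left out (coloured symbols, named by the library left out). Leaving out an LF/LCL library moved EGFR between -0.692 and -0.014 and TGFA between -0.638 and 0.204.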

How the data were processed

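PolyA libraries from the ampulla of 5 cows were sequenced as read pairs. The authors trimmed reads with seqyClean, aligned them with TopHat2 2.0.8 and Bowtie2 2.1.0 to the masked UMD assembly of Bos taurus, counted uniquely mapped reads per Ensembl gene with HTSeq 0.5.4p2, and divided the counts by DESeq 1.12.1 size factors. The strand setting was not stated. The deposited unit is thus a normalized signal, 1 value per gene and library, and replicates were not pooled.

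Members were matched by the symbol after the Ensembl identifier. The deposited values fell on whole reads once divided by a step fixed within each library (100% of nonzero values, tolerance 0.05 read), and 13418278 to 19592174 reads per library were recovered, which limits genes with few reads. The main test was limma 3.58.1 (R 4.3.3) on log2(value + 1), with trend and robust on and no covariates, for the 15815 genes with a mean over 5. A difference on this scale understates changes of low genes. P-values are two-sided, with Benjamini-Hochberg adjustment over all genes tested. edgeR 4.0.16 (quasi-likelihood), DESeq2 1.42.0 and limma-voom were run on the recovered reads as alternatives. Errors given after a difference are SE. The members and the gene lists were chosen with earlier results of these data known. Named genes are all members and the 3 genes of each pathway list with the smallest p; ADAM17, SPRY1, SPRY2, LRIG1, ERRFI1, DUSP6, FOS, EGR1 and PTPRC were added after their values were seen. E-CADHERIN was read as CDH1. Reads of near-identical or overlapping genes may be split.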

Additional observations from a re-analysis of the deposited data

How the results depend on the processing

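Over all genes, DESeq2 put 457 under an adjusted p of 0.05 where limma put 0, and in the pathway lists 4 where limma put 0; the cause was not tested. Each was 0 under the other alternatives, including without each library (0 to 0). The count of 0 members at an unadjusted p under 0.05 was 0 to 1 when each library was left out, the 1 being EGFR without LF/LCL replicate 1, and 0 otherwise. The pathway count of 8 ran from 7 to 12 without each library. Leaving out an LF/LCL library leaves 1, assumed to vary like the SF/SCL libraries. Over the 40 genes named with a fit, 17 of 520 values changed direction. Without each library, TGFA ran from -0.638 to 0.204 (0.105 without SF/SCL replicate 2), ERBB3 from -0.11 to 0.105 (0.025 and 0.033 without SF/SCL replicates 2 and 3), NRG1 from -1.457 to 0.134, NRG2 from -0.249 to 0.724, ADAM17 from -0.034 to 0.183, ERRFI1 from -0.405 to 0.843, FOS from -0.565 to 1.843 and EGR1 from -0.755 to 1.073. ERBB3, -0.0022 with limma, was 0.0011 with edgeR and TMM, 0.00031 with DESeq2 and 9.9e-05 with limma-voom. No paired analysis was possible because the labels give animal numbers that the groups do not share. With few cows the intervals are wide, and EREG and EPGN are limited by depth.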
